A study of Mus musculus with 2 samples.

Results

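Cytosolic ribosomal protein genes were read in neutrophils sorted from mouse bone marrow. The members were the genes whose symbol begins with Rpl or Rps and a digit, together with Rplp0, Rplp1, Rplp2 and Rpsa where measured, without S6 kinase genes and named pseudogenes, and only where a probe set was assigned to that gene alone. The rule found 50 genes, read by 106 probe sets, among 18193 genes and 34945 probe sets with 1 gene. Of these 50 genes, 43 encode subunits of the common cytosolic ribosome (20 of the large subunit body, 2 of its stalk and 21 of the small subunit). The other 7 fit the name pattern without being such subunits. Rpl22l1, Rpl39l, Rpl3l, Rps27l and Rps4l are paralogues of subunit genes, Rpl7l1 is a relative of Rpl7, and Rps19bp1 encodes a protein that binds Rps19.

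The study holds 1 group of 2 arrays, replicate 2 and replicate 1, each from an independent experiment. Both carry RNA of freshly isolated C57BL/6 bone marrow cells, live by DAPI exclusion and sorted as Gr-1high/CD48– neutrophils, with no treatment. The labels state neither ages nor whether cells of several mice were pooled. The values are MAS5 signals, a linear brightness per probe set, and all 12 neutrophil markers examined were above background on both arrays, among them S100a8, with 64632 on replicate 2 and 36507 on replicate 1.

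The cytosolic ribosome translates every messenger RNA of the nucleus. Its small subunit decodes the message, its large subunit joins the amino acids, and its stalk proteins recruit the translation factors that drive each step. The subunits are made in near equal numbers, and most of their messages start with a C followed by a run of pyrimidines, the terminal oligopyrimidine (TOP) tract, through which mTOR and Larp1 control their translation. Granulocyte precursors divide in the marrow, and mature neutrophils do not.

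Most members were well above the array background, which was set as the 95th percentile of probe sets for sensory receptor genes, those of smell and taste (131 on replicate 2 and 108 on replicate 1). On both arrays 44 of 50 genes (88.0%) exceeded it, against 40.4% of all 18193 genes. Of the probe sets, 85 of 106 (80.2%) did so, against 35.5% of all. The median log2 signal of the 44 genes was 11.92, while that of the 7353 genes above background was 8.95. Of the 44 genes, 26 were among the brightest 736 of the genes above background. The SD of a member's log2 signal over the 2 arrays was between 0.0016 and 0.86, with a median of 0.28. Probe sets bind with different strength, so no order of expression between genes was read from these levels.

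**Figure D1:**
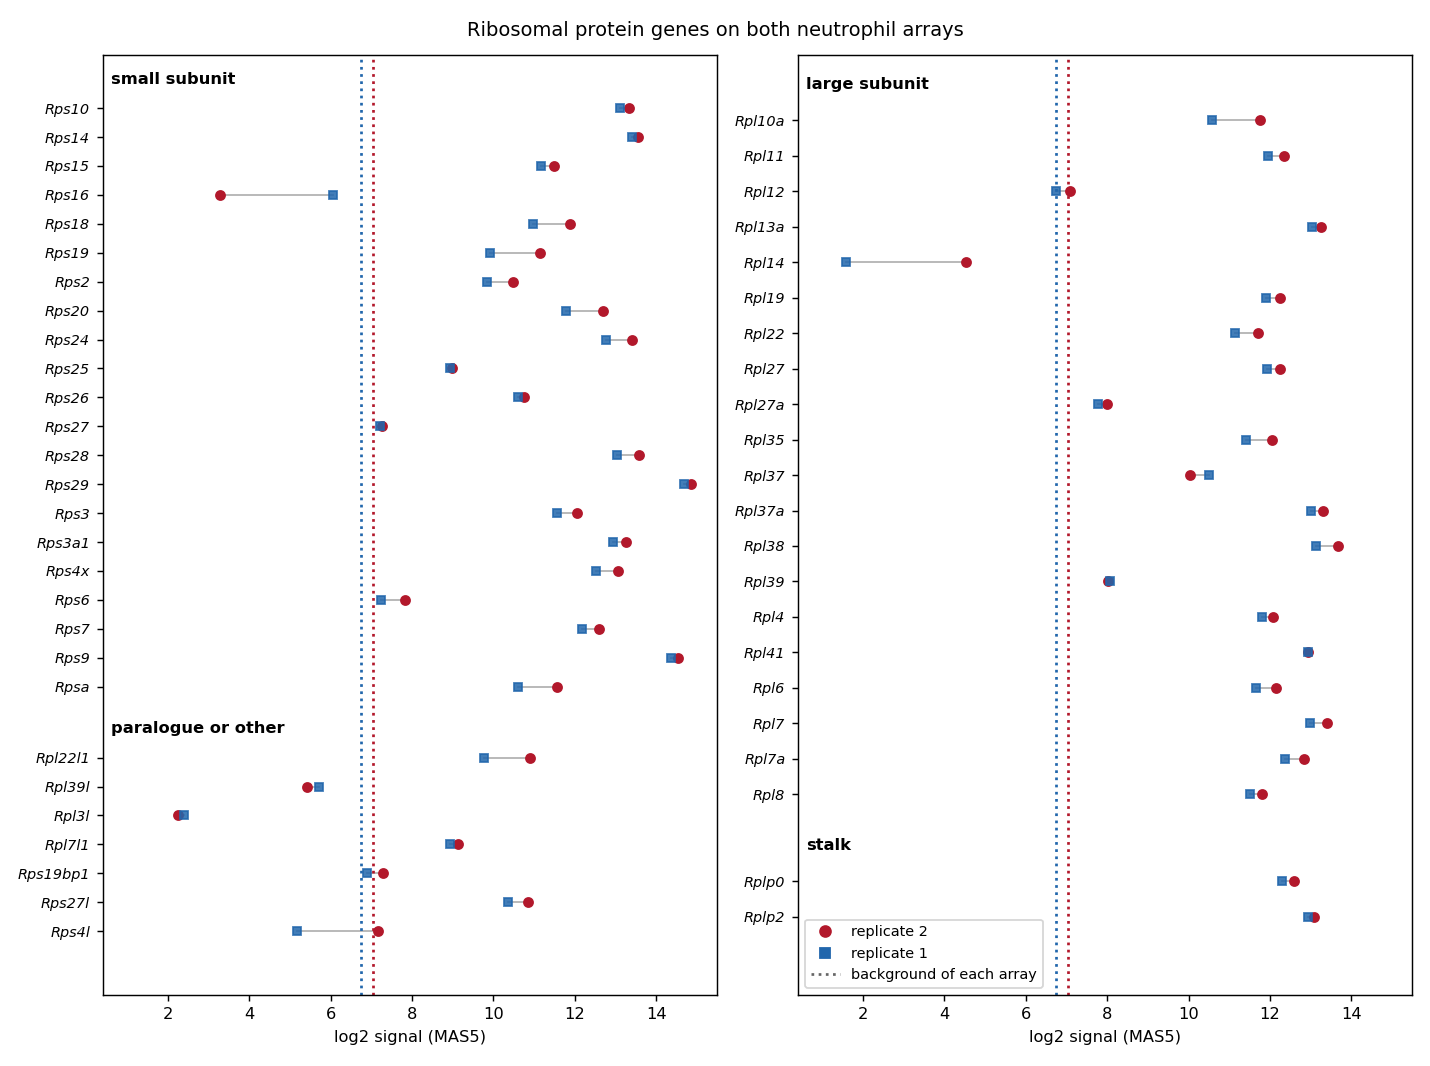
Log2 MAS5 signal of each of the 50 genes, read on its brightest probe set, on replicate 2 (red circles) and replicate 1 (blue squares), grouped by role. Dotted lines mark the background of each array, and 44 of the 50 genes had a probe set above it on both, most of them with the red point to the right of the blue.

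Among small subunit genes 20 of 21 were above background. Rps29, a zinc-binding protein of the subunit head, had signals of 29538 on replicate 2 and 26478 on replicate 1, a log2 signal of 14.77 ± 0.11 (SD, n = 2). Rps9 had 23785 and 21083 on replicates 2 and 1, and Rps14, whose loss underlies the anaemia of the human 5q deletion syndrome, had 12000 and 10852. As deposited, these bright genes differed little between the arrays, by 0.15 to 0.17 on the log2 scale. Rps3, which lines the entry of the mRNA channel, had 4241 on replicate 2 and 3043 on replicate 1. Rps4x, the X-linked form of a subunit that has a Y-linked copy in humans, had 8595 and 5839 on replicates 2 and 1. Rps19, mutated most often in human Diamond-Blackfan anaemia, had 2244 on replicate 2 and 964 on replicate 1, and Rpsa, also known as the laminin receptor, had 3019 and 1546. Rps19 and Rpsa had the wider gaps between the arrays in the deposited values. Scaled instead to the array's spiked hybridisation controls, their log2 differences were 0.50 and 0.24. Under that scaling Rps29 was at -0.56, Rps9 at -0.55 and Rps14 at -0.58.

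On their own probe sets, the other small subunit genes followed the same order of arrays. Rps20 and Rps18 had signals of 6657 and 3749 on replicate 2, against 3505 and 1993 on replicate 1. Rps2, which lies beside the entry of the mRNA channel, had 1434 on replicate 2 and 913 on replicate 1, and Rps28 had 12139 and 8450. Rps24, another gene of human Diamond-Blackfan anaemia, had 10836 on replicate 2 and 6988 on replicate 1. Each of these 5 was brighter on replicate 2, by 0.52 to 0.93 on the log2 scale. Rps3a1 had 9767 on replicate 2 and 7876 on replicate 1, Rps7 had 6169 and 4647, and Rps15 had 2858 and 2312. Rps26, at the mRNA exit channel, had 1727 and 1567 on replicates 2 and 1, and Rps25, needed by several viral internal ribosome entry sites, had 505 and 491. The last pair were nearly level in the deposited values, with log2 differences of 0.14 and 0.04.

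Of the 20 genes of the large subunit body 18 were above background, and so were both measured stalk genes. Rplp0, the stalk's anchor, had signals of 6112 on replicate 2 and 5061 on replicate 1, and Rplp2, an acidic stalk protein, had 8702 and 7882. Rpl11, which with Rpl5 and 5S rRNA can bind Mdm2 and so stabilise p53, had 5185 on replicate 2 and 3937 on replicate 1. Rpl13a, a part of the translation-silencing GAIT complex in human monocytes, had 9757 and 8394 on replicates 2 and 1. Rpl38, which in mouse embryos is needed for translation of Hox messages, had 12972 on replicate 2 and 8998 on replicate 1. Each of these genes was brighter on replicate 2 by less than 2-fold. Rpl41, among the shortest known proteins, had 7825 and 7838 on replicates 2 and 1. On this brightest of its probe sets it did not separate the arrays in the deposited values.

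Rpl35, near the exit of the peptide tunnel, had signals of 4248 on replicate 2 and 2741 on replicate 1. Rpl4, which reaches into that tunnel, had 4316 and 3564, and Rpl6 had 4541 and 3243. All 3 were brighter on replicate 2, by 0.28 to 0.63 on the log2 scale. Rpl7 had 10839 on replicate 2 and 8079 on replicate 1, Rpl7a had 7318 and 5296, Rpl8 had 3575 and 2909, and Rpl37a had 10103 and 8295. Rpl19, at the bridge between the subunits, had 4829 and 3852 on replicates 2 and 1, and Rpl27 had 4882 and 3910. Rpl27a, with 255 on replicate 2 and 217 on replicate 1, was dim on its own probe set. Its brightest probe set shared with other loci had 7698 and 6321.

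The paralogues were divided. Rpl22l1 was read beside its parent Rpl22, which in mice is needed for the development of alpha-beta T cells and represses Rpl22l1. Rpl22l1 had signals of 1903 on replicate 2 and 868 on replicate 1, and Rpl22 had 3357 and 2256. Rps27l, a p53 target in human cells, had 1849 and 1320 on replicates 2 and 1. Both paralogues were thus clearly above background in these neutrophils. Rpl3l, a paralogue of striated muscle, had signals of 4.72 on replicate 2 and 5.29 on replicate 1, and Rpl39l, expressed mainly in testis, had 42.8 and 52.0. Neither was above background on either array. Rps4l, which RefSeq (GRCm38.p6) classes as a transcribed pseudogene, had 144 on replicate 2 and 35.8 on replicate 1. It was above background on replicate 2 alone, there at least 1.34-fold higher than on replicate 1. Rpl7l1 had 559 and 485 on replicates 2 and 1, and Rps19bp1 had 157 and 119, close above background.

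Of the 43 subunit genes 3 were not above background on both arrays, each read by a single probe set. Rps16 had signals of 9.64 on replicate 2 and 67.1 on replicate 1, Rpl14 had 23.0 and 3.0, and Rpl12 had 135 and 107. Rpl12 lay at the threshold, above it on replicate 2 and just below on replicate 1. The other probe sets of these genes on the array are assigned to other loci as well, named pseudogenes among them, and are therefore outside the rule. Those for Rps16 had signals of 7724 and 9397 on replicate 2 and of 7492 and 8958 on replicate 1. The 5 for Rpl14 reached from 1069 to 2384 on replicate 2 and from 792 to 1753 on replicate 1, and the 2 for Rpl12 were 1012 and 1937 on replicate 2 and 663 and 1353 on replicate 1. Every one of these shared probe sets was above background on both arrays.

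The same held for several members close above background. Rps6, the substrate of S6 kinase that reports mTOR activity, had only 226 on replicate 2 and 152 on replicate 1 on its own probe set, while the brightest probe set shared with the pseudogene Rps6-ps4 had 14784 and 10697. Rps27, a zinc finger subunit, had 153 and 149 on replicates 2 and 1, against 7133 and 7890 on a probe set shared with Rps27rt. Rpl39, a small protein at the peptide exit tunnel, had 260 on replicate 2 and 268 on replicate 1, and 10032 and 9231 on its shared probe set. For these genes the own probe set was much dimmer than the shared one. Over the whole family the shares above background were close, at 80.2% of the single-gene probe sets and 83.6% of the shared ones.

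The members' brightness went with the probe set names. Ribosomal proteins have many processed pseudogenes, and the array marks probe sets that can bind several transcripts by the ending _x_at or _s_at and those for several transcripts of 1 gene by _a_at. Of the member probe sets 40 ended in _x_at (37.7%), against 5.83% of all single-gene probe sets. Of these 40, 38 were above background, against 45.6% of all probe sets with this ending. Of those ending in _a_at 27 of 28 were (all 48.0%), and of those ending in _s_at 2 of 3 (all 49.5%). Of the 35 with the plain ending _at, 18 were above background (51.4%), against 31.9% of all plain probe sets. The brightest probe set of 16 members ended in _x_at or _s_at, so part of their signal may come from transcripts of other loci, a share that was not tested.

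**Figure D2:**
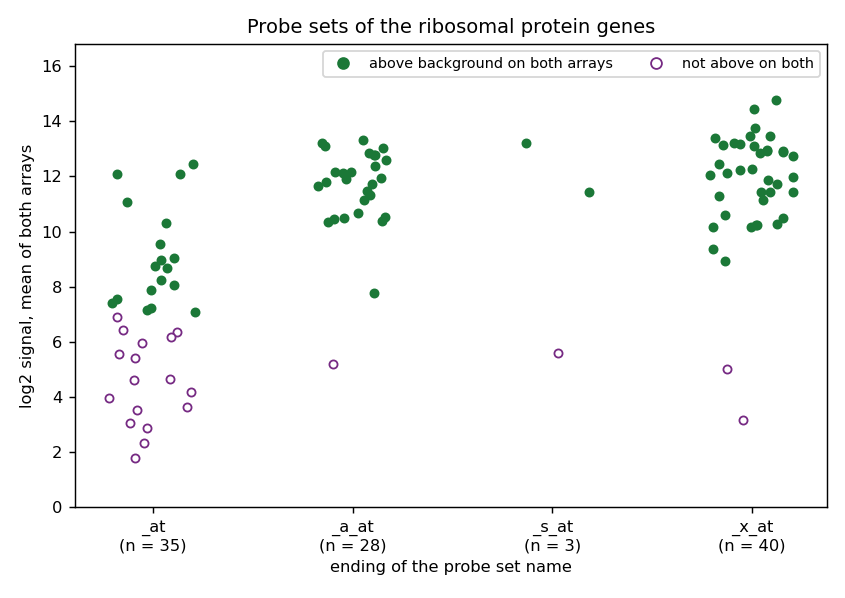
Log2 signal (mean of both arrays) of each of the 106 probe sets of the ribosomal protein genes by the ending of its name, filled where above background on both arrays. Nearly all _a_at and _x_at probe sets are bright, whereas 17 of the 35 plain _at probe sets are not above background.

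Within a gene, probe sets disagreed in brightness more than in their difference between arrays. Of the 24 members with 2 or more probe sets, 11 had some above and some below background. Rps18, a small subunit head protein, spanned from 4.97 to 3749 on replicate 2 and from 2.35 to 1993 on replicate 1 over 6 probe sets. Rps24 spanned from 5.24 to 10836 on replicate 2 and from 5.75 to 6988 on replicate 1, also over 6. Rps20, Rps4x, Rpsa and Rpl22 each had at least 1 probe set below background next to a bright one. Where 2 or more probe sets of a gene were above background, their difference between arrays had 1 sign in 15 of 20 genes. The range of the difference within such a gene had a median of 0.17 on the log2 scale, while the SD over the 44 members was 0.34. Probe sets of 1 gene can share target sequence, so they are not independent readings. As deposited, replicate 2 was higher for 27 of 27 _a_at, 34 of 38 _x_at and 15 of 18 plain member probe sets above background. A shared sign within a gene was thus likely even for unrelated probe sets. The widest disagreement was in Rps10, which is ubiquitinated on stalled ribosomes. One of its _x_at probe sets had 845 on replicate 2 and 1577 on replicate 1 (log2 difference -0.90), while the other 4 above background were higher on replicate 2 by 0.23 to 0.41. Rps9 was similar, with 358 on replicate 2 and 475 on replicate 1 on its plain probe set, and a higher replicate 2 on the other pair.

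Ribosomal protein genes were higher on replicate 2 than on replicate 1 as a group. Among the 44 members above background, 41 had the higher signal on replicate 2 (93.2%), against 56.3% of all 7353 genes, a direction that turned for most of them when the arrays were scaled to the hybridisation controls (6 of 44 higher, and 8.21% of all genes). The median log2 difference, replicate 2 minus replicate 1, was 0.36 for the members and 0.07 for all genes. The quartiles of the members were 0.21 and 0.56. With 1 array per experiment this has no replicate check and no p-value, and it holds everything that differed between the experiments. In RNA of a whole sorted population, more cells of a type and more RNA per cell cannot be told apart.

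Among bright genes the other genes had medians near 0, while dim genes as a whole were higher on replicate 2. Among the brightest 736 genes above background, 25 of 26 members were higher on replicate 2 with a median of 0.32, whereas 44.2% of the 710 other genes were, with a median of -0.05. In the next step of level down, all 7 members were higher (median 0.57), against 42.9% of 728 others (median -0.06). In the dimmest step the 2 members had a median of 0.22, as had the 734 others, and in the third step from the bottom 1 of 2 members was higher, with a median of 0.10 for the members and 0.14 for the 733 others. Over the 44 members the difference showed little relation to level, with Pearson's r of 0.02 and Spearman's rho of -0.09 across genes, which share both arrays and are not replicates.

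**Figure D3:**
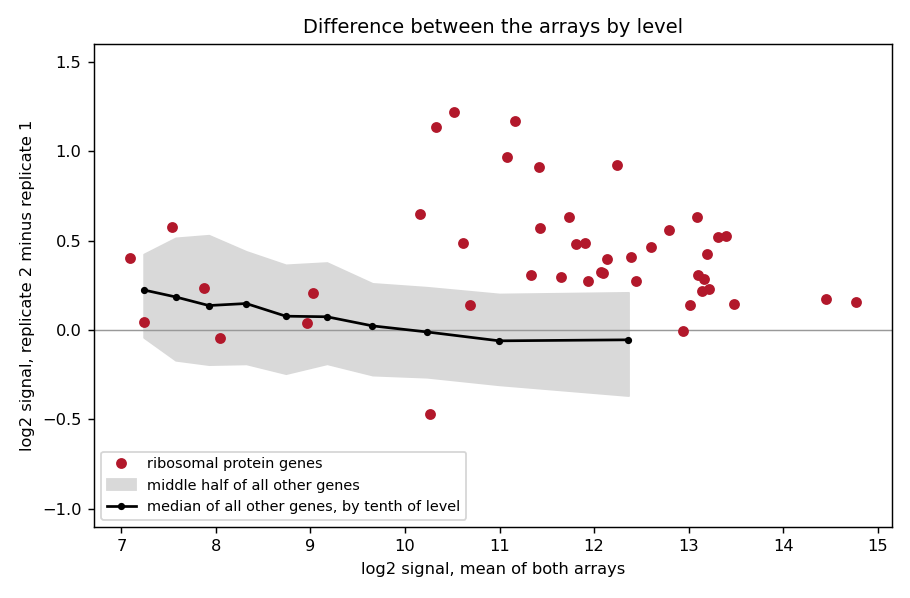
Log2 difference, replicate 2 minus replicate 1, against mean log2 signal for the 44 ribosomal protein genes above background (red). The black line and grey band give the median and quartiles of all other genes in 10 equal steps of level, and in the brightest step the members' median is 0.32 and that of the others -0.05.

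The size of the difference was set by the scaling. Of the array's spiked controls, the 18 hybridisation probe sets were brighter on replicate 2 by 0.59 to 0.82 (mean 0.72), and the 24 Bacillus subtilis probe sets by 0.28 to 1.24 (mean 0.86). Scaled to the hybridisation controls, the median was -0.36 for the members and -0.65 for all genes, and scaled to the Bacillus subtilis controls it was -0.50 and -0.79. Median scaling gave 0.23 for the members and -0.06 for all genes (39 of 44 members and 44.5% of all genes higher). Quantile normalization gave 0.40 and 0.05. The sign for the group thus depended on the scaling, while the members' median stayed above that of all genes by 0.29 under each single-factor scaling, as such scalings must leave it, and by 0.35 after quantile normalization.

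**Figure D4:**
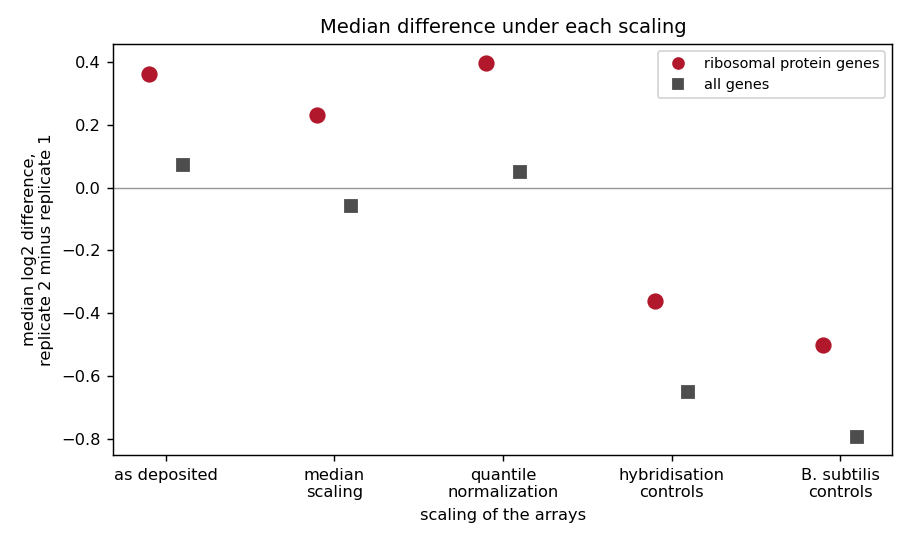
Median log2 difference, replicate 2 minus replicate 1, of the 44 ribosomal protein genes (red circles) and of all genes above background (grey squares) under 5 scalings. Both medians are below 0 under the 2 control scalings, and the members' median is the higher one under each of the 5.

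Of the 44 members 3 were over 2-fold higher on replicate 2 (all genes 3.43%) and none over 2-fold lower (all genes 1.97%). Rps19 was 2.33-fold higher (log2 difference 1.22), on its only probe set. Rpl10a, which in mouse embryonic stem cells is missing from some translating ribosomes, had 3433 on replicate 2 and 1524 on replicate 1 and was 2.25-fold higher. Rpl22l1 was 2.19-fold higher, against 1.49-fold for its parent Rpl22. Rpsa (1.95-fold) and Rps20 (6657 on replicate 2 and 3505 on replicate 1, 1.90-fold) followed. Scaled to the hybridisation controls, none of the 44 was over 2-fold higher (all genes 0.449%) and 1, Rpl37, was over 2-fold lower (-1.19, all genes 21.1%). Scaled to the Bacillus subtilis controls, none was over 2-fold higher (all genes 0.367%), and Rpl37 again was over 2-fold lower (-1.34, all genes 31.4%).

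Of the 44 members above background 3 were lower on replicate 2 in the deposited values, against 3213 of all 7353 genes. Rpl37, a zinc-binding protein of the large subunit, had 1044 on replicate 2 and 1448 on replicate 1 (log2 difference -0.47) on a single _x_at probe set, while its 2 bright probe sets shared with Rpl37rt differed by 0.12 and -0.05. Rpl39 (-0.04) and Rpl41 (-0.0023) were level between the arrays as deposited, and at -0.76 and -0.72 when scaled to the hybridisation controls. Other probe sets of both were higher on replicate 2 as deposited. Of the 4 for Rpl41, all above background, 3 were higher, by 0.19 to 0.39. The brighter shared probe set of Rpl39 was higher by 0.12. As deposited, and on their own probe sets, small subunit genes were higher in 20 of 20, with a median of 0.44, against 56.3% of all genes (median 0.07). Genes of the large subunit body were higher in 15 of 18, with a median of 0.32. The stalk genes Rplp0 and Rplp2 differed by 0.27 and 0.14. These medians lie within the spread of single members. Some brighter probe sets shared with other loci were lower on replicate 2, as for Rps25 (-0.29) and Rps27 (-0.15). The 2 brighter shared probe sets of Rps2 differed by 0.24 and 0.10, against 0.65 on its own. Of all shared probe sets above background, 81 of 92 were higher on replicate 2. Scaled to the hybridisation controls, only 6 of the 44 members were higher on replicate 2, against 8.21% of all genes.

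Ribosomal RNA was higher on replicate 2 in the deposited values, and lower when scaled to the hybridisation controls (-0.36 to -0.15) or the Bacillus subtilis controls (-0.50 to -0.29). The array carries 3 probe sets for 18S rRNA, the RNA core of the small subunit. They had 9723, 18226 and 25439 on replicate 2, against 7561, 13147 and 17056 on replicate 1, log2 differences of 0.36 to 0.58. This RNA has no poly-A tail, the usual priming site of such labelling, and how far its signal follows its amount was not tested.

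Windows of 30 bases around annotated starts are shown for the 5 members with the largest differences that had an entry, for members with a pyrimidine run at the start, and for 2 that differed little, all picked as examples. Sequences are from RefSeq (GRCm38.p6), 15 bases on each side of the annotated start, on the transcribed strand. Capitals mark 3 short pyrimidine words of the kind found in TOP tracts, marked on the transcribed strand, counted on both strands and free to overlap. The first was CTTTC. The second was CTTCC. The last was CTCTT.
Rps19, chr7:24884577-24884606 (+): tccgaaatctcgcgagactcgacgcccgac
Rpl10a, chr17:28328456-28328485 (+): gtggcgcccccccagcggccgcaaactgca
Rpl22l1, chr3:28805493-28805522 (+): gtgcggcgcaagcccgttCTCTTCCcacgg
Rpsa, chr9:120127751-120127780 (+): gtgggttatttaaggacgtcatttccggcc
Rps18, chr17:33955651-33955680 (-): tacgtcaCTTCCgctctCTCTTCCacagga
Rpl35, chr2:39005117-39005146 (-): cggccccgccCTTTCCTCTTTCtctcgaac
Rpl38, chr11:114668565-114668594 (+): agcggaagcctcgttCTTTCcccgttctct
Rps6, chr4:86857353-86857382 (-): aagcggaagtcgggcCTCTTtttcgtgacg
Rps10, chr17:27635230-27635259 (-): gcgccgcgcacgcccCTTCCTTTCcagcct
Rplp2, chr7:141447636-141447665 (+): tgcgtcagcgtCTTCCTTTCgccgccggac
Rps9, chr7:3704026-3704055 (+): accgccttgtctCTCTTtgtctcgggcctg

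In Rpl38, Rps6 and Rps10 the marked run begins at the annotated first base of the transcript. A window of this kind held at least 1 of these words in 18 of the 44 members with an entry (40.9%), against 15.4% of 14409 other genes on the array. On the opposite strand the shares were 15.9% of members and 15.6% of others. CTTTC alone was in 11 of 44 member windows and in 4.32% of others. The word CTCTT was in 18.2% of member windows and in 4.21% of others, and the word CTTCC in 13.6% of member windows and in 9.20% of others. The annotated first base was C or T in 50.0% of members and in 27.9% of others. The longer windows, 250 bases before to 50 after the start, held CGGAAG, the core bound by ETS factors, on either strand in 31 of 44 members (70.5%) and in 26.9% of others. On the opposite strand that word reads CTTCCG and so overlaps CTTCC. On either strand of the same windows, the word TATAAA was in 13.6% of members and in 11.5% of others. Annotated starts can be off by several bases, and a gene with several starts was counted once if any held the word. Among members above background, the median difference between arrays was 0.41 for the 15 with a pyrimidine word and 0.36 for the 24 without, a gap well within the spread over members.

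Other genes of protein synthesis were mostly higher on replicate 2 in the deposited values, a direction that turned for most of them under control scaling. Of 25 measured translation factors and other genes with TOP messages, 24 were above background (96.0%, against 40.4% of all genes), 19 of the 24 were higher on replicate 2 (79.2%, against 56.3% of all genes), and the median difference was 0.34. Scaled to the hybridisation controls 2 of the 24 were higher (median -0.39), and scaled to the Bacillus subtilis controls 1 was (median -0.53). The elongation factor gene Eef1a1 had signals of 13275 on replicate 2 and 11416 on replicate 1, Eef1b2 had 2920 and 2268, Eef1d had 425 and 303, and Eef2, the translocase, had 1738 and 1817. Nap1l1, a histone chaperone, was the only one over 2-fold higher (1.19 on the log2 scale), followed by the initiation factor subunit Eif3h (0.86). Snhg8 (-0.70) and Hnrnpa1 (-0.23) had the largest differences in the other direction. Fau, which encodes a ubiquitin-like protein fused to the small subunit protein Rps30, had 15864 and 15240 on replicates 2 and 1. It lies outside the name pattern and differed by 0.06.

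Mitochondrial ribosomal protein genes, which serve the separate ribosome of that organelle, were above background in 56 of 76 genes (73.7%, against 40.4% of all genes). Of these 56, 40 were higher on replicate 2 (71.4%, against 56.3% of all genes), with a median of 0.41. Scaled to the hybridisation controls 11 were, with a median of -0.32. As deposited, Mrpl58 (1.49) and Mrpl45 (1.42) differed most upward, Mrpl21 (-0.34) and Mrpl33 (-0.31) most downward. Their quartiles were -0.01 and 0.64, against 0.21 and 0.56 for the cytosolic members. Ribosome biogenesis genes were above background in 17 of 40 (42.5%, against 40.4% of all genes). Ncl (nucleolin) had 1207 on replicate 2 and 1111 on replicate 1, the methyltransferase gene Fbl had 198 and 88.0, Nop56 had 128 and 138, and Nop58 had 84.4 and 22.5, the last below background on both. Of the 17, 12 were higher on replicate 2 (70.6%, against 56.3% of all genes), with a median of 0.17. Scaled to the hybridisation controls 3 were (median -0.56). As deposited, Ltv1 (1.17) and Nmd3 (0.99) were at the top and Polr1a (-0.71) and Bysl (-0.29) at the bottom. The share of biogenesis genes above background was thus close to that of all genes.

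**Figure D5:**
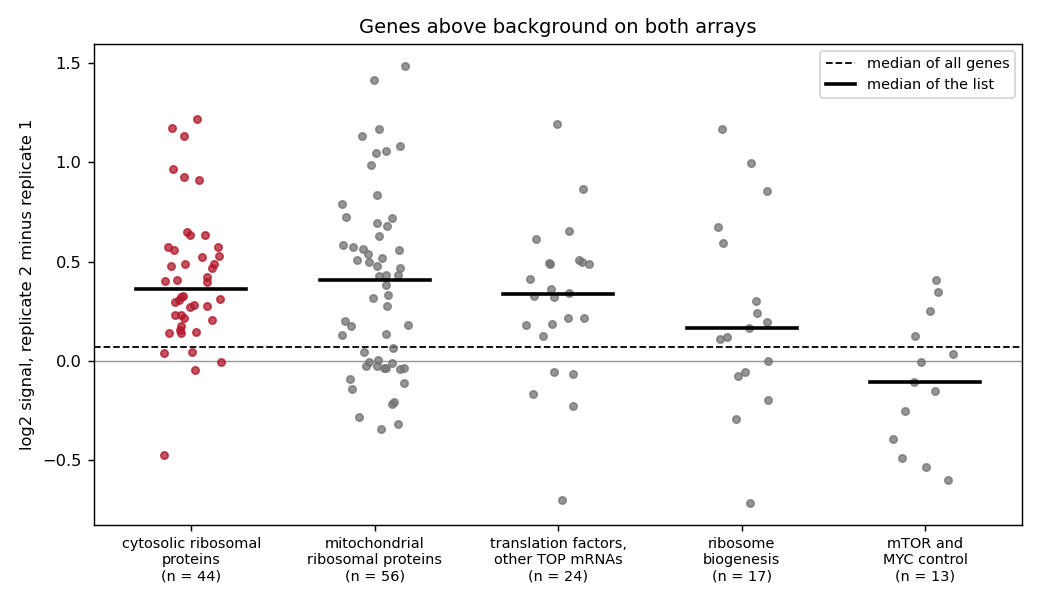
Log2 difference, replicate 2 minus replicate 1, of single genes above background on both arrays in 5 lists, with the median of each list (bar) and of all genes (dashed line, 0.07). The medians are 0.36 for cytosolic ribosomal proteins, 0.41 for mitochondrial ones, 0.34 for translation factors, 0.17 for ribosome biogenesis and -0.11 for mTOR and MYC control genes, and all 5 are below 0 when scaled to the hybridisation controls.

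Genes that control ribosomal protein messages had a median below 0. Of 16 measured genes of the mTOR and MYC list 13 were above background (81.25%, against 40.4% of all genes). Of the 13, 5 were higher on replicate 2 (38.5%, against 56.3% of all genes), with a median of -0.11, and none when scaled to the hybridisation controls (median -0.83). Mtor had signals of 405 on replicate 2 and 305 on replicate 1, Rptor had 342 and 314, Rheb had 2453 and 2719, and Tsc1 had 357 and 300. Mtor (0.41) and Tsc2 (0.35) differed most upward, and the MYC antagonist Mnt (-0.60) and the translation repressor Eif4ebp1 (-0.53) most downward. Myc itself, which drives transcription of ribosomal protein genes, had 33.2 on replicate 2 and 1.21 on replicate 1, not above background on either array. Its antagonist Mxd1 had 6713 and 8826 on replicates 2 and 1.

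Other values also differed between the arrays, in both directions. Of 19 measured proliferation genes 10 were above background on both arrays (52.6%, against 40.4% of all genes). All 10 were higher on replicate 2 (median 2.10), against 56.3% of all genes. Scaled to the hybridisation controls 9 of the 10 were higher (median 1.38), against 8.21% of all genes. Another 6 were above background on replicate 2 alone, as were 642 of all 18193 genes. The summed signal of the 19 was 12330 on replicate 2 and 2821 on replicate 1. Of 9 stem and progenitor markers Kit and Myb were above background on both arrays (22.2%, against 40.4% of all genes). Both were over 2-fold higher on replicate 2 in the deposited values (all genes 3.43%). Scaled to the hybridisation controls Kit was higher by 0.44 and Myb by 1.18 on the log2 scale. The 9 markers had a sum of 2126 on replicate 2 and 1035 on replicate 1. The sums were 846 and 631 on replicates 2 and 1 for 9 B cell markers, 738 and 821 for 8 T and NK cell markers, 1106 and 1223 for 9 erythroid markers and 3032 and 6781 for 9 monocyte and macrophage markers. Csf1r carried most of the last sum, with 1928 on replicate 2 and 5020 on replicate 1. Above background on both arrays were 1 of 9 B cell, 1 of 8 T and NK cell and 3 of 9 erythroid markers. So were 5 of 9 monocyte and macrophage markers, and 40.4% of all genes. The neutrophil markers summed to 356241 on replicate 2 and 251588 on replicate 1, a sum carried by S100a8, S100a9 and granule genes. Of the 12, 9 were higher on replicate 2 and 3 lower: the chemokine receptor gene Cxcr2 had 3224 on replicate 2 and 7212 on replicate 1, Csf3r, the G-CSF receptor gene, had 4670 and 7951, and Padi4 had 4027 and 4088. Scaled to the hybridisation controls, 3 of the 12 were higher (median -0.32), against 8.21% of all genes. Scaled to the Bacillus subtilis controls none was higher (median -0.47), against 5.41% of all genes. The ratio of 3' to 5' control probe sets was 1.25 on replicate 2 and 1.10 on replicate 1 for Actb, and 0.78 and 0.76 for Gapdh. No marker was at exactly 0 on either array. The part of these in the difference of the ribosomal protein genes was not tested.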

How the data were processed

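The deposited values are linear intensities, and the submitters' processing notes name MAS5 without a version. With 2% trimmed from each end, both arrays had a mean signal of 250.0, so differences are relative to an equal total brightness. Of 45101 probe sets, 932 have several genes and 9211 no gene in GEO's platform annotation; neither these nor array controls were counted as genes. All 50 member symbols matched RefSeq. Signals under 1 were set to 1 before log2, the brightest probe set gave a gene's level, and a gene was above background when any of its probe sets was on both arrays. No test was possible, as the labels give 1 group of 2 arrays, and the number of arrays limits the precision; the arrays may differ for technical reasons. The calculations used Python 3.11.15 with pandas 2.3.3 and were tested on simulated data.

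The members and lists were chosen with earlier results of these data known. Genes named with values are a fixed set of members with known roles, the members with the largest differences (up to 5 in each direction), those not above background, those whose probe sets differ most, and the first 4 and the 2 extreme genes of each related list; other genes are named as examples after their values were seen. Alternatives were other background percentiles (90 and 99), scalings, 32 added to the signal, no filter, the median over probe sets, no _x_at or _s_at probe sets, each array alone, and subunit genes alone. Control scaling of the related lists and 18S rRNA was added after seeing the data.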

Additional observations from a re-analysis of the deposited data

Results flagged for a closer look

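Probe sets assigned to several genes, of which at least 1 is a ribosomal protein gene, lie outside the members and carried signal above background. Of these 110 probe sets 92 (83.6%) were above background on both arrays, against 35.5% of all single-gene probe sets. The share over all 932 probe sets with several genes was not computed, so whether 83.6% is high for such probe sets was not tested. As deposited, 81 of the 92 were higher on replicate 2 (median log2 difference 0.37), against 56.3% of all genes, a share of genes and not of probe sets. The hybridisation controls were higher by more than this median (mean 0.72), so scaled to them the median falls below 0. They cover 27 subunit genes that have no probe set of their own, all 27 above background, among them Rpl3 (2728 on replicate 2 and 1052 on replicate 1), Rpl5 (5644 and 3534) and Rplp1 (3667 and 4104). With them, 70 subunit genes that fit the name pattern had a probe set above background.

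The middle 18S rRNA control probe set, with 18226 on replicate 2 and 13147 on replicate 1, was above background. It is a control of the array and enters no gene level.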

How the results depend on the processing

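The count of members above background was 42 to 45 of 50 under the other percentiles, 43 with the median over probe sets and 44 to 46 on single arrays. Without _x_at and _s_at probe sets it was 37 of the 45 members still measured. Each scaling gave 44, as single-factor scalings must, since the background is scaled along. Adding probe sets shared with other genes, an alternative chosen after seeing the data, gave 78 genes. Subunit genes alone gave 40. The median level (11.92) became 11.16 with the median over probe sets, 11.47 without _x_at and _s_at probe sets, and 11.72 to 12.06 on single arrays. The median difference (0.36) was between 0.23 and 0.40 under the alternatives other than scaling to spiked controls, which gave -0.36 (hybridisation controls) and -0.50 (Bacillus subtilis controls, added after seeing the data); these scalings shift every gene alike. The number over 2-fold higher (3) was 0 under both of those and 5 without a filter on background, where Rpl14 and Rps4l entered. Without that filter Rps16 was over 2-fold lower. In both directions the share of members over 2-fold was then below the share of all genes. Of 316 differences of single named genes under alternatives, 83 moved by more than their SD over the arrays. A change of sign was looked for only in differences over 2-fold, and none was found. The control scalings could not turn these, as they shift every gene by only 0.72 and 0.86. Smaller differences did change sign and were counted as moved, such as Rplp0, from 0.27 to -0.45 when scaled to the hybridisation controls. A difference cannot be computed with an array left out. No paired analysis was possible because there is 1 group. Members near the background (Rpl12, Rps27, Rps19bp1, Rps6) are the least certain.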
